A study of Mus musculus with 4 samples.

Results

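The long intergenic noncoding RNAs (lincRNAs) of mouse liver, 45 genes of 37315 in the files, were measured in liver of Fto knockout (KO) mice and of wild-type (WT) mice, all C57BL/6 and 23 weeks old, with 2 libraries of polyadenylated RNA per genotype. How Fto was disrupted is not in the labels, nor whether the libraries of a genotype stand for different mice. The p-values below therefore weigh genotype against library spread, part or all of which may be technical. Members were chosen by annotation and total level: a gene typed as lincRNA in GENCODE release M21 with a summed count of 200 or more over the 4 libraries, leaving out the imprinted RNAs Meg3, Rian, Mirg and H19. GENCODE M21 types 1126 of the listed genes as lincRNA, 505 of these had at least 1 read, and 46 reached the threshold before Meg3 was set aside. The sum is over both genotypes, so a gene high in 1 genotype can reach it through that genotype. Meg3, left out by name, had 1316 and 843 reads in KO, against 65 and 84 in WT (log2 fold change 3.73, edgeR adjusted p = 0.00132). Just inside the threshold were Slmapos2 with 219 reads, Gm17354 with 216 and 2210417A02Rik with 208. Just outside were the miRNA host Mir17hg with 198, AI838599 with 197 and Gm11752 with 177.

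LincRNAs are long transcripts that come from between protein-coding genes and carry no long reading frame. They are capped, spliced and often polyadenylated like messenger RNAs, but many stay in the nucleus. Some scaffold nuclear bodies, some pair with small RNAs, some host small nucleolar RNAs (snoRNAs) or microRNAs (miRNAs), and some act on a neighbouring gene. N6-methyladenosine (m6A), one of the marks removed by the dioxygenase FTO, is found on several of them, Malat1 and Neat1 among them, mostly within the sequence GGACT and its relatives.

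The libraries held 44689114 and 40947808 counts for KO replicates 1 and 2, and 41332870 and 39549592 for WT replicates 1 and 2, so that 1 read stood for 0.0216 to 0.0263 CPM (counts scaled to library size). Fto itself was at 13.1 and 12.1 CPM in the KO libraries, against 41.2 and 33.9 CPM in the WT libraries (log2 fold change -1.57, SE 0.195, edgeR adjusted p = 0.0109). The tissue was checked on 6 hepatocyte markers, Alb among them, which together were at 79058 and 89206 CPM in KO and 69925 and 80483 CPM in WT. All 6 had a positive log2 fold change, with a median of 0.30. On this list edgeR and limma-voom called 0 and DESeq2 called 1. Cps1 (log2 fold change 0.74, edgeR adjusted p = 0.0821) was the 1 with an unadjusted p under 0.05. Markers of Kupffer cells, the liver macrophages, summed to 345 and 372 CPM in KO, against 160 and 239 CPM in WT. All 10 of them had a positive log2 fold change and an unadjusted p under 0.05, against 13% of all genes with such a p. Of these 10 edgeR called 2, DESeq2 4 and limma-voom 2, and none was at 0 reads. The 3 erythroid markers summed to 170 and 191 CPM in KO, against 241 and 277 CPM in WT, each with a negative log2 fold change; edgeR called 0, DESeq2 called 1, Hbb-bs (log2 fold change -0.80), and 2 had an unadjusted p under 0.05. Of 5 endothelial markers edgeR called 0 and DESeq2 called 1, Lyve1 (log2 fold change -1.40, edgeR adjusted p = 0.0623), the 1 with an unadjusted p under 0.05. Of 5 stellate cell markers 0 were called by any tool, and 2 had an unadjusted p under 0.05, Lrat (-0.59) and Col1a1 (-0.73). Adipocyte markers summed to 0.584 and 6.29 CPM in KO and 3.32 and 10.01 CPM in WT, higher in replicate 2 of each genotype. Adipoq, the adiponectin gene, had 0 and 71 reads in KO and 1 and 70 in WT, and Lep, the leptin gene, had 0 and 36 in KO and 0 and 41 in WT. T and B cell markers summed to 1.12 to 2.28 CPM. The part of these markers in the lincRNA values was not tested. In bulk liver, fewer cells of a type and less RNA per cell cannot be told apart.

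The sequences below mark the small RNAs that members carry or bind, and the promoters of the called member and of the most abundant one. E130102H24Rik and Ftx hold miRNA genes on their own strand, Mir101a in the first, Mir374b and Mir421 in the second. Gm12718 likewise holds Gm23064, a gene typed as miRNA, and Snhg20 holds Mir6516. 1700020I14Rik, listed in RefSeq as Oip5os1 with the synonym Cyrano, is known for a near-perfect site for miR-7 through which it brings about the decay of that miRNA in mouse brain. Capitals mark the seed (bases 2 to 8) in the miRNAs and the bases opposite the seed in the Cyrano site. Mature sequences are from RefSeq on GRCm38.p6, and the site is from the GENCODE M21 transcript (chr2:119602137-119602161, plus strand, GRCm38).
mmu-miR-101a-3p: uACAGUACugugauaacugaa
mmu-miR-374b-5p: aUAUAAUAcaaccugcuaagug
mmu-miR-7a-5p: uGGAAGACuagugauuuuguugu
miR-7 site of 1700020I14Rik: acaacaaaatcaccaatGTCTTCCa
An alignment matched 22 of the 23 miR-7a-5p bases to their complement in this site of 25 bases. The 3 miRNAs shown have different seeds. The hosted miRNAs were not measured as such, since selection for polyadenylated RNA leaves mature miRNAs out: Mir101a and Gm23064 had 0 reads in every library, Mir374b had 3 in WT replicate 1 and 0 in the others, and Mir421 had 1 in each WT library and 0 in the KO libraries.

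Promoters run from 250 bases before to 50 bases after the RefSeq start (GRCm38.p6). Capitals mark matches on either strand to 5 motifs, the TATA box spelled TATAAA, the CCAAT box as its name gives it, the GC box spelled GGGCGG, the E-box spelled CACGTG and the core bound by STAT factors, spelled TTCNNNGAA. No motif window overlaps another in these sequences.
Gm15408 promoter, chr5:149006712-149007011, plus strand: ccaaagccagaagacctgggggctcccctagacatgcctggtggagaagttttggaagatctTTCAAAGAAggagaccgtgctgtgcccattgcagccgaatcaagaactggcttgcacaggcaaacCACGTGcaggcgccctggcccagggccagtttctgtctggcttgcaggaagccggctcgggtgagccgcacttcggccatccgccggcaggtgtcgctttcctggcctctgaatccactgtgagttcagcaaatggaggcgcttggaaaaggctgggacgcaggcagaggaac
Malat1 promoter, chr19:5802623-5802922, minus strand: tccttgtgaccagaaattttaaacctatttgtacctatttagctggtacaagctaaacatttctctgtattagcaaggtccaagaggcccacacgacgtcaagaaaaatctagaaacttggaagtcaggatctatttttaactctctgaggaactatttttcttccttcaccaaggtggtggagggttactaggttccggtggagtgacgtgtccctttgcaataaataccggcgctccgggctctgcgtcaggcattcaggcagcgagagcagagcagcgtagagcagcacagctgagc
The Gm15408 window holds 1 E-box and 1 STAT core, and the Malat1 window holds none of the 5. Of the 45 members, 21 had a RefSeq promoter within 1000 bases of their GENCODE start. Among these, 5 held an E-box (23.8%, against 7.15% of 32817 RefSeq promoters), 4 a STAT core (19.05%, against 8.29%), 7 a CCAAT box (33.3%, against 37.4%), 7 a GC box (33.3%, against 35.6%) and 2 a TATA box (9.52%, against 13.6%). These matches are letters in a window, given as a description.

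A few nuclear RNAs made up most of the lincRNA reads. The 45 members together held 58606 and 43977 reads in the KO libraries and 77108 and 50516 in the WT libraries. This was 0.131% and 0.107% of all counts in KO, against 0.187% and 0.128% in WT, a difference of -0.0379 percentage points that an exact two-sided permutation test did not separate (p = 0.667, where 2 against 2 libraries allow no p under 0.333). That difference became -0.00846 percentage points without WT replicate 1 and -0.0673 without WT replicate 2. Malat1 alone took 56.8% and 48.0% of the member reads in KO and 64.6% and 47.9% in WT. Neat1 took 6.11% and 10.4% in KO, against 8.52% and 14.8% in WT. Without Malat1 the share was 0.0566% and 0.0558% in KO, against 0.0661% and 0.0666% in WT, groups that did not overlap (exact permutation p = 0.333, the smallest possible). Without Neat1 as well it was 0.0486% and 0.0446% in KO and 0.0502% and 0.0477% in WT, and the groups overlapped.

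Mean levels over the 4 libraries, as CPM after TMM scaling, ran from 1.24 for 2210417A02Rik to 764 for Malat1, with a median of 3.51. Per kilobase of merged exons the order was different. Malat1 was at 109 CPM per kb, close to Gm12840 at 108, and AW112010 followed at 61.3. Tmem250-ps was at 25.2 and 1810058I24Rik at 25.1 CPM per kb. Neat1, whose annotated exons span 20771 bases, was at 6.53 CPM per kb, next to 1700020I14Rik at 7.27. These per-length levels use GENCODE M21 exons, which may differ from those the reads were counted on.

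**Figure D1:**
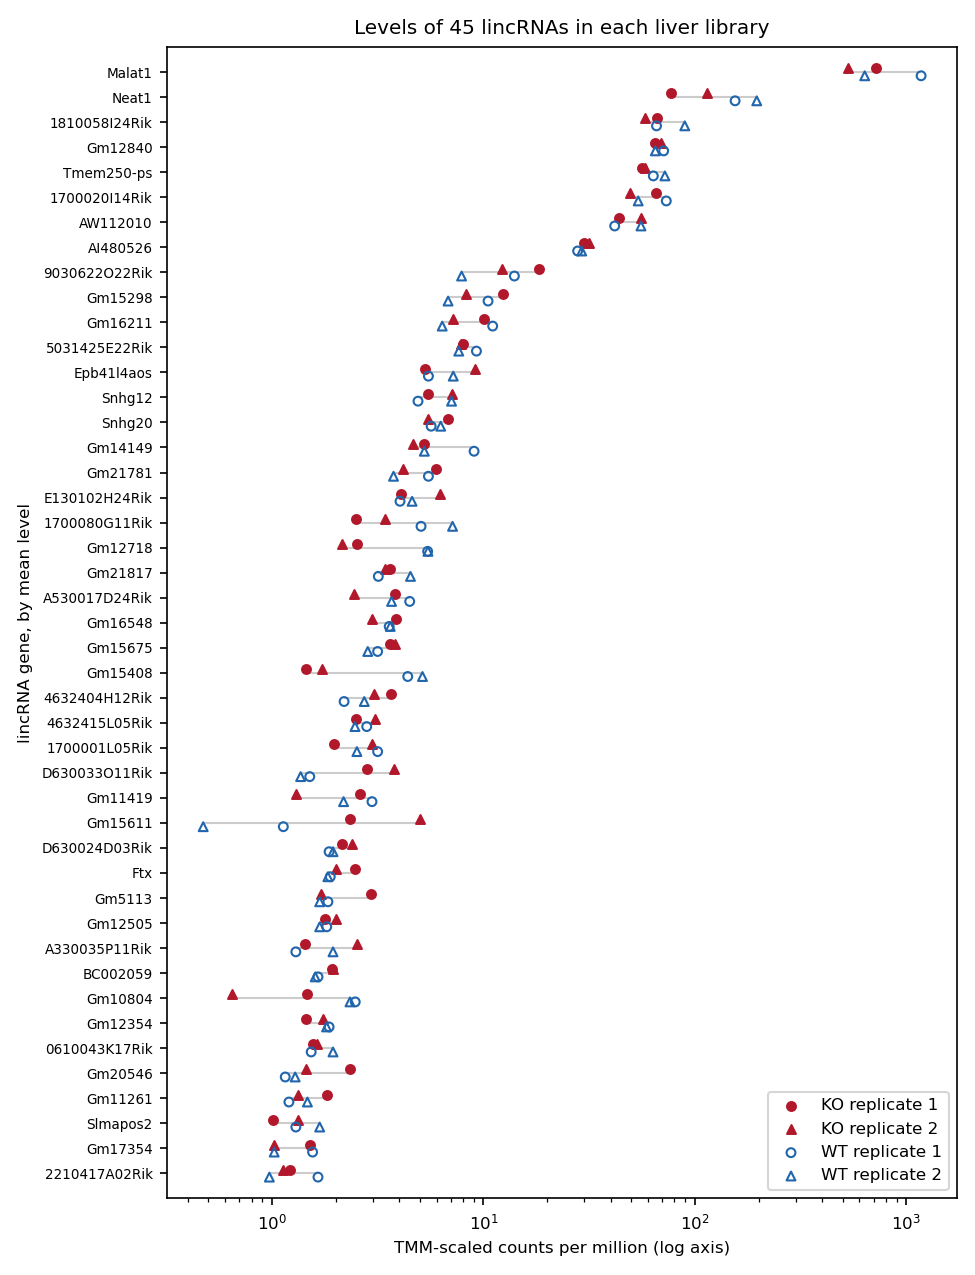
TMM-scaled CPM (log axis) of each of the 45 lincRNAs in each library, ordered by mean level, with filled red symbols for KO and open blue symbols for WT (circles replicate 1, triangles replicate 2) and a grey line over the range. Malat1 spans 528 to 1174 CPM, 8 genes lie above 20 CPM, and the KO and WT symbols of Gm15408, Gm12718 and 1700080G11Rik are apart.

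One lincRNA, Gm15408, was called, and it was lower in KO. The 45 members were all tested in the fit over 13836 genes, and 1 of them (2.22%) passed at an adjusted p under 0.05, against 1.91% of all genes tested (0.961% higher and 0.947% lower in KO). At an unadjusted p under 0.05 there were 7 members (15.6%), against 13% of all genes. DESeq2 called 4 of the 45 members, against 3.78% of its genes, and limma-voom called 1 of the 45, Gm15408, against 1.86%. The median log2 fold change of the members was -0.02 and that of all genes 0.01, with 22 members positive and 23 negative. The median size of the log2 fold change was 0.25 for members and 0.23 for all genes. A log2 fold change of 1 or more in size was seen in 6 members (13.3%), against 7.21% of all genes. Of these, Gm15611 (48 and 18 reads in WT) and Gm10804 (68 and 26 in KO) would fall short of 200 at the level of their lower genotype. The count threshold favours such members, so no excess is read from this share. The levels of both KO libraries lay outside those of both WT libraries for 17 members (37.8%), 9 above and 8 below, against 42% of all genes (21.6% above and 20.4% below). The 4 DESeq2 calls were Gm15408, Gm12718, Gm15611 and Neat1, a share above that of all genes. Gm15611 among them reached the threshold with the help of its KO reads, so this share is not read as a result about lincRNAs. The share called by edgeR and by limma-voom was near that of all genes. Over all 113 lincRNAs tested 3 were called (2.65%), the other two being Meg3 and Gm13021, against 2.41% of antisense genes, 4.14% of processed transcripts and 1.86% of protein-coding genes.

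**Figure D2:**
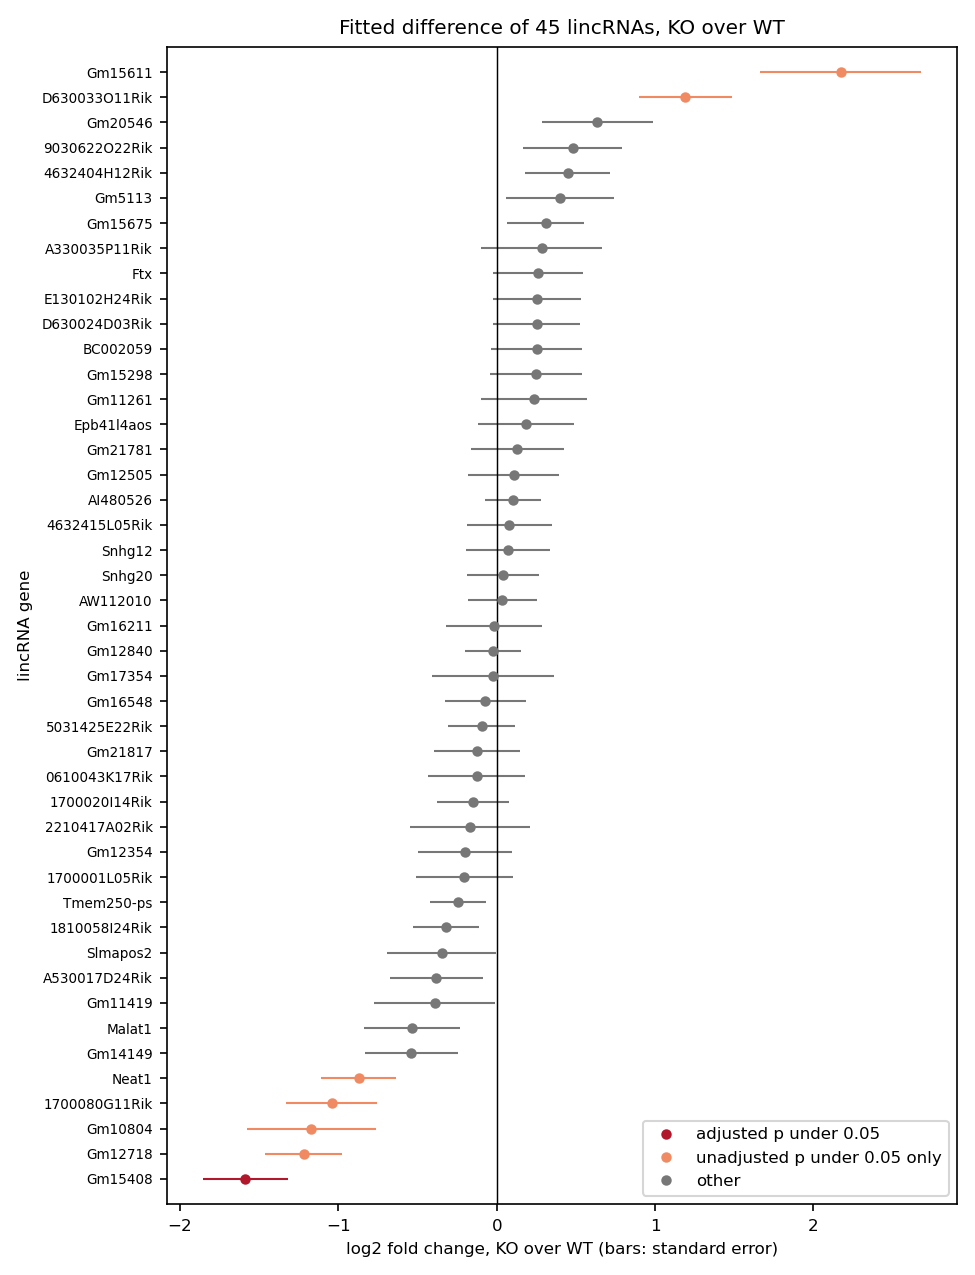
Fitted log2 fold change of each member, KO over WT, with bars of 1 standard error; dark red marks an adjusted p under 0.05, orange an unadjusted p under 0.05 only. Gm15408 at -1.59 is the called gene, and the estimates run up to 2.17 for Gm15611.

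Gm15408 (ENSMUSG00000086610, chr5:149006962-149012776, plus strand, mm10) has 4 exons, 1379 bases of merged exon and no role in the sources used here. It had 67 and 69 reads in the KO libraries, against 186 and 196 in the WT libraries, or 1.45 and 1.72 CPM in KO against 4.38 and 5.15 CPM in WT. Both KO libraries lay below both WT libraries, with little spread within a genotype. The log2 fold change was -1.59 (SE 0.267, edgeR adjusted p = 0.0309), a KO level 33.3% of WT. The log2 ratio of KO to WT was -1.60 for replicate 1 and -1.58 for replicate 2. The gene runs inside the span of Gm15411, a processed transcript on the opposite strand, without sharing an exon with it. Gm15411 had 48 and 35 reads in KO and 62 and 47 in WT, and its log2 fold change of -0.49 (SE 0.348, adjusted p = 0.642) did not pass. The libraries do not mark strand, so reads from the introns of either gene cannot be assigned by strand. The nearest protein-coding gene of the annotation, Gm42791, was not analysed here. Hmgb1, which encodes an abundant chromatin protein and lies 33926 bases away, was at 83.9 and 110 CPM in KO and 99.0 and 103 CPM in WT (log2 fold change -0.05, SE 0.195), so its groups overlapped.

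A further 6 members had an unadjusted p under 0.05 without being called, and 5 of them (all but Neat1) were named after their values were seen. Except for Gm15611, the lowest adjusted p over the settings tried, given below, came from edgeR with a replicate term. The labels do not say that a replicate number pairs libraries, and 2729 of 13836 genes were called with that term. Gm12718 (chr4:103382500-103492040, plus strand), which begins 10632 bases beyond the end of the mitochondrial protease gene Oma1, had 117 and 86 reads in KO, against 231 and 208 in WT. Both KO libraries were at less than both WT libraries, and the WT levels of 5.45 and 5.46 CPM were nearly equal. Its log2 fold change was -1.22 (SE 0.244, adjusted p = 0.0561). DESeq2 called it (adjusted p = 0.0114), and over all settings tried the adjusted p ran from 3.38e-04 to 0.0963.

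1700080G11Rik (chr4:127531622-127532885, plus strand) lies 173441 bases from its nearest protein-coding gene, Gjb5. It had 116 and 137 reads in KO, against 215 and 272 in WT. The groups did not overlap, and the log2 fold change was -1.04 (SE 0.286, adjusted p = 0.147, from 9.92e-04 to 0.351 over the settings tried). Gm10804 (chr2:93452819-93469871, plus strand) begins within the span of Cd82, a tetraspanin gene on the opposite strand. It had 68 and 26 reads in KO, against 105 and 89 in WT, with KO replicate 2 far below KO replicate 1. Its log2 fold change of -1.17 (SE 0.407, adjusted p = 0.265) became -1.88 without KO replicate 1 (adjusted p = 0.0125) and -0.72 without KO replicate 2, and over all settings tried the adjusted p ran from 0.00833 to 0.610.

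Gm15611 (chr5:8998402-8999669, minus strand) had 108 and 200 reads in KO, against 48 and 18 in WT. The KO libraries lay above the WT libraries, with a wide gap between the libraries of each genotype. Its estimate was the highest of the 45, at 2.17 on the log2 scale (SE 0.508, edgeR adjusted p = 0.0886), and so was its standard error. The log2 ratio of KO to WT was 1.05 for replicate 1 and 3.40 for replicate 2. DESeq2 called it (adjusted p = 0.00175), and over all settings tried the log2 fold change ran from 1.52 to 2.94 and the adjusted p from 1.06e-07 to 0.156. The gene lies 1078 bases upstream of Crot, which encodes a peroxisomal carnitine acyltransferase and is read from the same strand. D630033O11Rik (chr9:43243599-43280076, plus strand) had 130 and 151 reads in KO, against 64 and 52 in WT. Its groups were apart, and its log2 fold change was 1.19 (SE 0.293, adjusted p = 0.106, from 0.00312 to 0.317 over the settings tried).

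Malat1 and Neat1, neighbours on chromosome 19, are the best studied nuclear lincRNAs. Malat1 gathers in nuclear speckles, which store splicing factors, and Neat1 is the scaffold without which paraspeckles do not form. The end of Malat1 and of the long Neat1 isoform is cut by RNase P and carries no poly(A) tail, so selection for polyadenylated RNA may take them up in part. Malat1 shares exonic bases with 2 other annotated genes and Neat1 with 3, so their counts are uncertain to that extent. Neat1 (chr19:5824708-5845478, minus strand) had 3580 and 4587 reads in KO, against 6570 and 7465 in WT, or 77.4 and 115 CPM in KO against 155 and 196 CPM in WT. Both KO libraries were below both WT libraries. The log2 fold change of -0.87 (SE 0.237, adjusted p = 0.144) did not pass with edgeR, did pass with DESeq2 (adjusted p = 0.0244), and lay between -1.19 and -0.61 over all settings tried. The adjusted p of Neat1 was 0.133 with limma-voom, and 1.12e-07 in edgeR with the replicate term, whose pairing the labels do not give. Malat1 (chr19:5795690-5802672, minus strand) had 33311 and 21120 reads in KO, against 49795 and 24185 in WT. At 720 and 528 CPM in KO and 1174 and 635 CPM in WT its groups overlapped. The log2 fold change was -0.54 (SE 0.301, adjusted p = 0.529). It became -0.92 without WT replicate 2 and -0.03 without WT replicate 1. The adjusted p of Malat1 was 0.542 with DESeq2, 0.574 with limma-voom and 0.00210 in edgeR with the replicate term.

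Of 6 tested RNAs on the list of nuclear RNAs edgeR and limma-voom called 0, DESeq2 called Neat1, and Neat1 was the 1 with an unadjusted p under 0.05. The genes for the proteins of these bodies, and for the machinery that degrades nuclear RNA, were set beside them. Of 12 paraspeckle protein genes tested 0 were called by edgeR, DESeq2 or limma-voom. The 1 with an unadjusted p under 0.05 was Sfpq, a core paraspeckle protein, with 104 and 92.5 CPM in KO against 70.2 and 69.9 CPM in WT (log2 fold change 0.49, adjusted p = 0.278). The list had 10 positive and 2 negative values with a median of 0.18, against 0.01 over all genes. Of 12 nuclear speckle protein genes (median 0.07) and 19 genes of nuclear RNA decay (median 0.02), 0 were called by any of the 3 tools and 0 had an unadjusted p under 0.05. Of 15 tested genes for m6A writers, readers and erasers, Fto itself was the called one (median 0.10).

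Among the other abundant RNAs none was called by any of the 3 tools, and none had an unadjusted p under 0.05. 1700020I14Rik, the miR-7-binding Cyrano RNA shown above, had 65.4 and 49.1 CPM in KO and 73.2 and 53.9 CPM in WT (log2 fold change -0.15, SE 0.229, adjusted p = 0.871). In both genotypes replicate 2 was lower than replicate 1, and the groups overlapped. AW112010 is an RNA of myeloid and other immune cells, induced by inflammatory stimuli in mouse macrophages and translated from a start other than AUG. It was at 43.8 and 55.9 CPM in KO and 41.7 and 55.6 CPM in WT (log2 fold change 0.03, SE 0.219), while the Kupffer markers given above had a median log2 fold change of 0.88. The part of macrophage number in either value was not tested.

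1810058I24Rik, listed in RefSeq with the synonyms Stmp1 and Mm47 and typed there as protein coding, encodes a small mitochondrial membrane protein. It was at 65.9 and 58.2 CPM in KO and 65.8 and 89.5 CPM in WT (log2 fold change -0.32, SE 0.209, adjusted p = 0.602), with WT replicate 2 apart from the other 3 libraries. Tmem250-ps is also protein coding in RefSeq and 4632415L05Rik a transcribed pseudogene, while 29 of the 32 members found in RefSeq are lncRNA there. Tmem250-ps had 56.2 and 58.1 CPM in KO, against 63.6 and 72.1 CPM in WT. These groups did not overlap, and the log2 fold change was -0.25 (SE 0.176, adjusted p = 0.647). Gm12840 had 64.6 and 69.3 CPM in KO and 71.1 and 65.0 CPM in WT, so that its groups overlapped at a log2 fold change of -0.02 (SE 0.174), the lowest standard error of the 45.

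Among the members that hold an annotated snoRNA or miRNA gene, Gm12718 (described above) was called by DESeq2, and the others were called by none of the 3 tools. Snhg12, which carries snoRNAs, was at 5.49 and 7.07 CPM in KO and 4.90 and 7.06 CPM in WT (log2 fold change 0.07, SE 0.266). Snhg20 had a log2 fold change of 0.04 (SE 0.228) and Epb41l4aos one of 0.19 (SE 0.303). Of 9 tested snoRNA hosts of any annotation class 0 were called by any tool and 0 had an unadjusted p under 0.05. The growth arrest RNA Gas5, which GENCODE types as a processed transcript, had 57.0 and 74.9 CPM in KO and 58.1 and 78.0 CPM in WT. The miR-101a host E130102H24Rik was at 4.06 and 6.24 CPM in KO and 4.03 and 4.60 CPM in WT (log2 fold change 0.26, SE 0.278). Ftx, a gene of the X-inactivation centre, had 114 and 80 reads in KO, against 80 and 70 in WT, or means of 2.23 CPM in KO and 1.86 CPM in WT (log2 fold change 0.26, SE 0.283, adjusted p = 0.791). Of 6 tested genes on a list made for other miRNA hosts, Mirt2 (typed by GENCODE as misc_RNA) among them, 0 were called by any tool. The 1 with an unadjusted p under 0.05 was Dnm3os, an antisense transcript, with 12 and 7 reads in KO, against 23 and 26 in WT (log2 fold change -1.47, SE 0.528, adjusted p = 0.282). Of 4 tested p53 and stress RNAs edgeR and limma-voom called 0, DESeq2 called Neat1, and 2 had an unadjusted p under 0.05. The other of these was Trp53cor1 (lincRNA-p21, a p53 target), which fell short of the count threshold, with 3 and 3 reads in KO, against 19 and 12 in WT (log2 fold change -2.41, SE 0.681, adjusted p = 0.161). Of 2 tested RNAs on a list of liver metabolism lncRNAs, 1 was called higher in KO. This was Gm16551, a liver noncoding RNA linked to lipid synthesis genes in mouse and typed as a processed transcript and so no member here. It had 777 and 966 reads in KO, against 63 and 69 in WT (log2 fold change 3.63, SE 0.271, adjusted p = 0.00132).

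A lincRNA can share a promoter or chromatin domain with its neighbour, so each member was set beside the nearest protein-coding gene. The median distance was 6796 bases. For 22 members it was at most 5000 bases, 3 of them overlapped the span of a protein-coding gene, and 14 shared exonic bases with another annotated gene, which HTSeq counting can leave uncounted. In 5 cases the pair was head to head within 1000 bases: A330035P11Rik with Tm9sf2, Gm5113 with Zfp146, 5031425E22Rik with the chromatin regulator gene Kmt2e, 4632404H12Rik with the ubiquitin-conjugating enzyme gene Ube2q1, and AI480526 with the histone methyltransferase gene Setd1b. The most abundant of them after AI480526, 5031425E22Rik, had 369 and 314 reads in KO and 393 and 291 in WT, and its groups overlapped. The log2 fold changes of these 5 lincRNAs ran from -0.10 to 0.45, and 0 were called by any tool or had an unadjusted p under 0.05.

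The neighbours of 35 members were tested, 34 genes in all. Of these 0 were called by edgeR, DESeq2 or limma-voom. The 1 with an unadjusted p under 0.05 was Ms4a8a beside AW112010 (adjusted p = 0.279), which had 32 and 10 reads in KO, against 4 and 5 in WT. The lincRNA and its neighbour had the same sign in 20 of the 35 pairs, and their log2 fold changes had Pearson's r = -0.03 across pairs, which share the same 4 libraries. Beside the tested pairs with a lincRNA estimate far from 0, the neighbour's log2 fold change was between -0.12 and 0.09. Oma1 had -0.06 (SE 0.229) beside Gm12718, Crot -0.12 (SE 0.229) beside Gm15611, Oaf 0.09 (SE 0.164) beside D630033O11Rik, Cd82 -0.08 (SE 0.173) beside Gm10804, and Frmd8 -0.03 (SE 0.191) beside Neat1. 9030622O22Rik begins 2674 bases downstream of Foxa2, a transcription factor gene of liver identity on the same strand. It had 844 and 492 reads in KO and 594 and 300 in WT, and the groups overlapped. Its log2 fold change was 0.48 (SE 0.313, edgeR adjusted p = 0.605), and that of Foxa2 was -0.19 (SE 0.185). For 9030622O22Rik the adjusted p was 0.775 with DESeq2 and 0.577 with limma-voom. It was 0.00995 in edgeR with the replicate term, whose pairing the labels do not give.

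Several members lay apart between genotypes without an unadjusted p under 0.05. Of these, AI480526 had 1376 and 1260 reads in KO, against 1183 and 1110 in WT. At 29.8 and 31.5 CPM in KO against 27.9 and 29.1 CPM in WT, the KO libraries lay just above (log2 fold change 0.10, SE 0.175). Gm14149 had 241 and 185 reads in KO, against 383 and 200 in WT (log2 fold change -0.54, SE 0.294, adjusted p = 0.515). Its KO libraries lay below, but WT replicate 2 was close to them. 4632404H12Rik had 169 and 122 reads in KO, against 93 and 104 in WT (log2 fold change 0.45, SE 0.271, adjusted p = 0.568). Gm20546 had 108 and 58 reads in KO, against 49 and 49 in WT (log2 fold change 0.64, SE 0.351, adjusted p = 0.522). In both of these the KO libraries lay above the WT libraries. Gm15675, D630024D03Rik and BC002059 lay above WT in KO with log2 fold changes of 0.31, 0.25 and 0.25, and Gm12354 lay below with -0.20. Gm15298, on the X chromosome, had 570 and 330 reads in KO and 446 and 259 in WT, and Gm16211 had 464 and 288 in KO and 469 and 243 in WT. In both genes replicate 2 was lower than replicate 1 in each genotype and the groups overlapped.

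**Figure D3:**
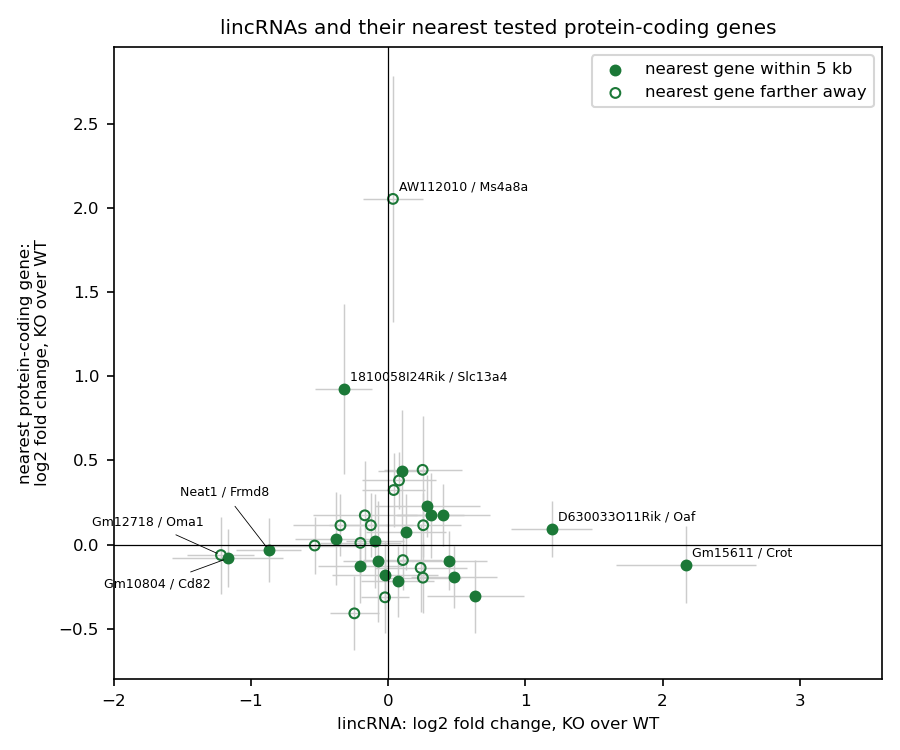
Log2 fold change, KO over WT, of the lincRNA (horizontal axis) and of its nearest protein-coding gene (vertical axis) for the 35 members whose neighbour was tested, with bars of 1 standard error; filled points mark a neighbour within 5 kb (5000 bases). Neighbours of the lincRNAs far to the left or right sit between -0.12 and 0.09, and the point at 2.06 is Ms4a8a beside AW112010.

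Gm21817 is the member on the chromosome of Fto. It lies at chr8:92336668-92339250 on the minus strand, 668229 bases beyond the end of Fto and head to head with the homeobox gene Irx5. It had 168 and 137 reads in KO and 135 and 172 in WT, so that the groups overlapped (log2 fold change -0.12, SE 0.269, adjusted p = 0.922). Irx5 itself had 1 and 1 reads in KO and 0 and 0 in WT, too few to test.

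The spread between libraries of 1 genotype was set beside the difference between genotypes. For 18 members the log2 ratio of replicate 2 over replicate 1 exceeded the genotype log2 fold change in size in both KO and WT. For 12 members the genotype value exceeded both ratios. A ratio of 2 single libraries varies more than a difference between means of 2 libraries. The same counts were not made over all genes, so no conclusion about lincRNAs is drawn from them. In 15 members replicate 2 was lower than replicate 1 in both genotypes and in 13 it was higher in both. Malat1 had ratios of -0.45 in KO and -0.89 in WT, 9030622O22Rik had -0.57 in KO and -0.83 in WT, and 1700020I14Rik had -0.41 in KO and -0.44 in WT. The adipocyte marker sum given above went the other way from these 3 RNAs and was higher in replicate 2 of each genotype. Neat1 ran the other way from Malat1, with 0.57 in KO and 0.34 in WT. Gm15611 had opposite ratios, 1.10 in KO and -1.26 in WT. Across the 45 members the ratios of the genotypes had r = 0.30. Their correlation with the log10 of exon length was r = -0.19 in KO and r = 0.01 in WT.

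**Figure D4:**
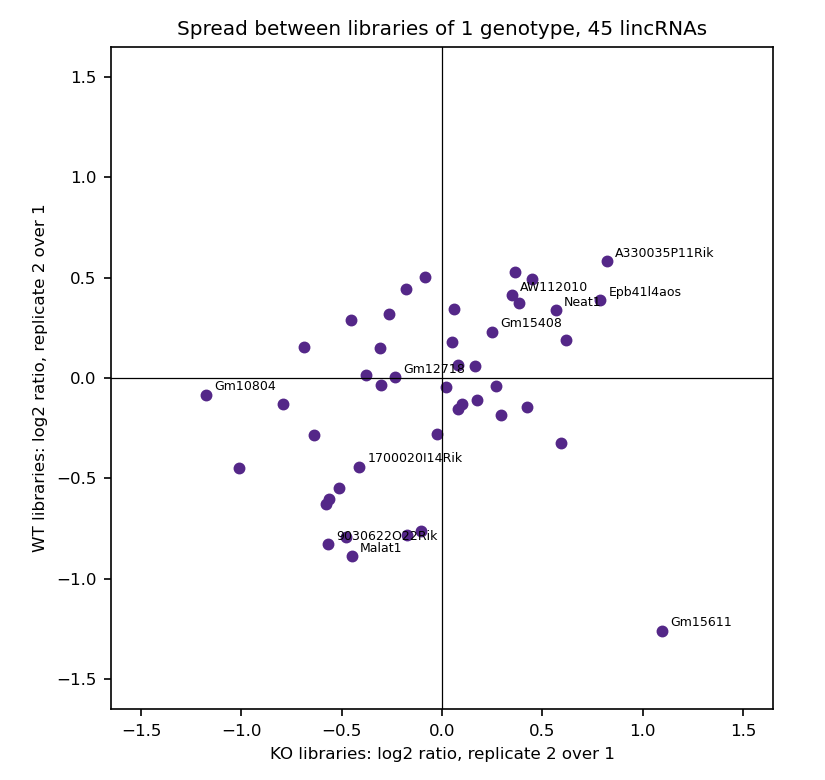
Log2 ratio of replicate 2 over replicate 1 for each of the 45 members, in KO libraries (horizontal axis) and in WT libraries (vertical axis). Malat1, 9030622O22Rik and 1700020I14Rik lie at the lower left, Neat1 at the upper right and Gm15611 at the lower right.

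The core of the m6A motif, GGACT, was counted on the sense strand of the longest GENCODE transcript of each member. It occurred in 37 of 45 members, at 1.22 per kb over all of them, against 1.14 per kb over 5854 lincRNA genes and 1.06 per kb over 21951 protein-coding genes. Neat1 held 23 matches, Malat1 9 and 1700020I14Rik 8. Gm15408, the called member, held 2, as did Gm15611, while Gm12718 and 1700080G11Rik held none. A match is a stretch of letters, and methylation was not measured in these libraries.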

How the data were processed

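Liver RNA of 2 KO and 2 WT libraries was extracted with TRIzol, selected for polyadenylated RNA, made into TruSeq v2 libraries and read as pairs of 101 bases on a HiSeq3000, per the labels' protocols. That kit does not mark strand. The deposited files hold raw counts of reads per Ensembl gene. Per the submitters' processing notes, the authors used TopHat2 2.1.1, HTSeq 0.6.0 and the build mm10. The annotation release is not given in the sources used here. GENCODE M21, on the same assembly, gave a type and position for 35449 of 37315 identifiers; the 1866 without a match held 0.143% to 0.194% of a library's counts. Every pair of libraries differed by more than sampling noise (chi-square per degree of freedom 86.5 to 226).

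Genotypes were compared with edgeR 4.0.16 in R 4.3.3 over all genes: filterByExpr (minimum count 10, minimum total 15), TMM scaling, robust quasi-likelihood F test, two-sided, genotype as the only term, Benjamini-Hochberg adjustment over 13836 genes, called under 0.05. Standard errors (SE) were derived from the fold change and its F statistic. Alternatives were DESeq2 1.42.0, limma-voom (limma 3.58.1), other scalings, no filter, each library left out, a replicate term and other member thresholds. The procedure was tested on simulated data. The SD of 2 libraries and the number of libraries limit precision; reads are not independent molecules.

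The members and lists were chosen with earlier results of these data known. Named by rule were the 12 members highest in CPM, called members and their neighbours, members of the lists, genes next to the threshold, Fto, and the list genes with the smallest p. All other members and neighbours were named after their values were seen.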

Additional observations from a re-analysis of the deposited data

How the results depend on the processing

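Gm15408 was called under all 10 alternatives run on it, with log2 fold changes from -1.72 to -1.46 and adjusted p from 3.81e-05 to 0.0489. Among the 45 members, 1 was called; the count was 4 with DESeq2, 7 with no filter on low counts, 3 to 6 without 1 library, 2 at a summed count of 100 or more and 0 at 1000 or more (16 members, of which edgeR and limma-voom called 0, DESeq2 called Neat1, and 1 had an unadjusted p under 0.05). Leaving out members that RefSeq types as protein coding or pseudogene, chosen after seeing the data, gave 1. Over all genes 264 were called, 829 with no filter, 562 with DESeq2 and 460 to 633 without 1 library. A replicate block gave 8 of 45 members and 2729 of 13836 genes, so the share of members was near that of all genes. KO and WT deviations of equal number had r = 0.43 across genes, but the labels do not say that a number pairs libraries. The difference in the share of counts lay between -0.0673 and -0.00846 percentage points without 1 library.

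The settings were followed for 22 named members, and the other members were not checked in this way. Among the 22, the sign changed without 1 library for these, none of them called: Gm12840 (-0.095 to 0.043), 1700020I14Rik (-0.37 to 0.086), AW112010 (-0.16 to 0.25), Gm15298 (-0.070 to 0.60), Gm16211 (-0.37 to 0.43), 5031425E22Rik (-0.24 to 0.049), Snhg12 (-0.17 to 0.35), Snhg20 (-0.12 to 0.18) and Epb41l4aos (-0.27 to 0.53). Gm16211 was also 0.014 with limma-voom and 0.0074 with the replicate block. The cause was not tested. Depth and 2 libraries per genotype limit what can be seen in members of few reads.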
